A study of Homo sapiens with 4 samples.

Results

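The genes described here encode the parts of the mitochondrial respiratory chain downstream of complex I: complex II, complex III, cytochrome c, complex IV and complex V. They were chosen by name, as array probe sets annotated with a single symbol that is SDHA, SDHB, SDHC, SDHD, CYC1 or CYCS, or that begins with UQCR, with COX and a digit, or with ATP5. The rule took 117 of the 54675 probe sets, which stand for 58 of the 19775 genes with a single symbol. It left out 3 probe sets of pseudogenes or antisense transcripts, and 8 probe sets that carry several symbols. Because the mitochondrial genome's cytochrome oxidase genes are listed as COX1, COX2 and COX3, the same letters also took these 3, and they are described as a group of their own. SDHB, UQCRFS1 and UQCRH were not analysed here. The measurements came from 4 Affymetrix oligonucleotide arrays of total RNA from HCT116, an established human colon carcinoma line. The labels name HCT116 wt and HCT116 wt/GFP, and do not describe the GFP construct or say whether that line is a single clone. Each line was grown flat as a monolayer or as spheroids, round balls of many cells. Each line and culture had 1 array, so every comparison of cultures has n = 2 arrays against 2, paired by cell line unless said otherwise.

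In the respiratory chain, complex II (succinate dehydrogenase) and complex I feed electrons through ubiquinone to complex III, the cytochrome bc1 complex, from which the soluble carrier cytochrome c takes them to complex IV, cytochrome c oxidase, where oxygen is reduced. Complexes III and IV move protons across the inner membrane, and complex V, the ATP synthase, lets them return through a rotating ring of c subunits that drives ATP formation in its F1 head. Most subunits are made from nuclear genes and imported, while a few core subunits are made inside the organelle from mitochondrial DNA, and several complex IV subunits exist as a ubiquitous and a tissue-restricted or condition-dependent isoform.

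Values are MAS5 signals, intensities on a linear scale. A change is the difference of log2(signal + 14.0) between spheroids and monolayers, fitted with limma with the cell line as a block, and is given with its moderated standard error (SE). The SE rests mainly on other genes of like brightness, and the p-values measure the spread between these arrays, which may be partly technical. A gene was called where the Benjamini-Hochberg adjusted p over the 14349 genes tested was under 0.05. Probe sets bind with different strength, so signals of different genes are not compared. The median change over all genes tested was 0.23, so a gene at 0 lay below the middle of the array. At an equal trimmed mean of 500.1, the middle signal of an array was 47.9 and 48.6 for monolayers against 67.0 and 68.2 for spheroids. The ratio of the 3' to the 5' probe set of ACTB, a measure of RNA integrity, stood at 1.32 and 1.30 for monolayers against 1.76 and 1.73 for spheroids. That of GAPDH, 0.897 and 0.882 for monolayers and 0.868 and 0.951 for spheroids, overlapped between the cultures. The part of RNA quality in the changes was not tested. Of 6 epithelial markers, all 6 were tested and 4 rose, with a summed signal of 105366 and 86977 in monolayers and 117999 and 116876 in spheroids. Of the 5 fibroblast markers, 3 were tested and 2, COL1A1 and COL3A1, rose. COL3A1 read 29.5 and 6.56 in monolayers and 57.4 and 79.8 in spheroids. Both monolayer signals lay under 30.6, the signal that corresponds to the filter, so it passed through spheroids and had to differ. The sum of the 5 markers, 450 and 437 in monolayers, reached 2412 and 4036 in spheroids. COL1A1, a collagen chain, gave 303 and 338 of it in monolayers and 2275 and 3780 in spheroids, whereas COL1A2 lay between 7.47 and 28.6 on the 4 arrays. Leukocyte markers, 1 of 3 tested and 0 called, summed to 90.9 and 52.4 in monolayers and 110 and 39.6 in spheroids. Endothelial markers, 1 of 3 tested and 0 called, summed to 134 and 117 in monolayers and to 211 and 270 in spheroids. The part of any of these cell types in the results was not tested, and in bulk RNA fewer cells of a type and less RNA per cell cannot be told apart.

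Of the 58 genes, 53 had a probe set bright enough to be tested, and 11 of them were lower and 5 were higher in spheroids, while 37 had no call. The 11 are 20.8% of the tested genes, against 18.5% of all genes called lower, and the 5 are 9.43%, against 30.6% of all genes called higher. The share called lower was thus near the background, and the share called higher was below it. In either direction, 49.1% of all genes were called. Many probe sets chosen for respiratory genes are among the brightest on the array, which does not order transcripts by amount. Among the 389 genes at or above the respiratory genes' median level of 13.77 (log2), 24.7% were called lower and 28.5% higher, with a median change of 0.05. The 11 lower genes comprised UQCRQ, UQCR10 and CYC1 of complex III, COX8A and COX6A2 of complex IV, COX11 and COX16 among the complex IV assembly factors, and ATP5MC1, ATP5MG, ATP5F1C and ATP5IF1 of complex V. The 5 higher genes were the mitochondrial COX1, COX2 and COX3, and COX7A2L and COX19. All 16 called genes moved in the same direction in both lines. Under 3 other ways of scaling the arrays, 8 of the 11 lower genes kept their call, and COX11, COX16 and ATP5IF1 lost it after quantile normalization. COX3 was the only one of the 5 higher genes called under all 4 scalings. When the moderation took no account of brightness (no trend), ATP5MC1, UQCRQ, COX8A and COX3 alone kept their calls, and 12 genes lost theirs. The share of all genes called in that fit was not counted. Fits that left out an array also left out the cell line from the model, since a block would leave no residual degree of freedom, and the lone array of a culture was assumed to vary like the others; leaving out the line alone gave 9 lower and 4 higher. The numbers of calls in the fits without an array are not given, since the share over all genes was not counted for them. Calls lost without an array, as given below, are from these fits, where the array and the pairing cannot be told apart.

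**Figure D1:**
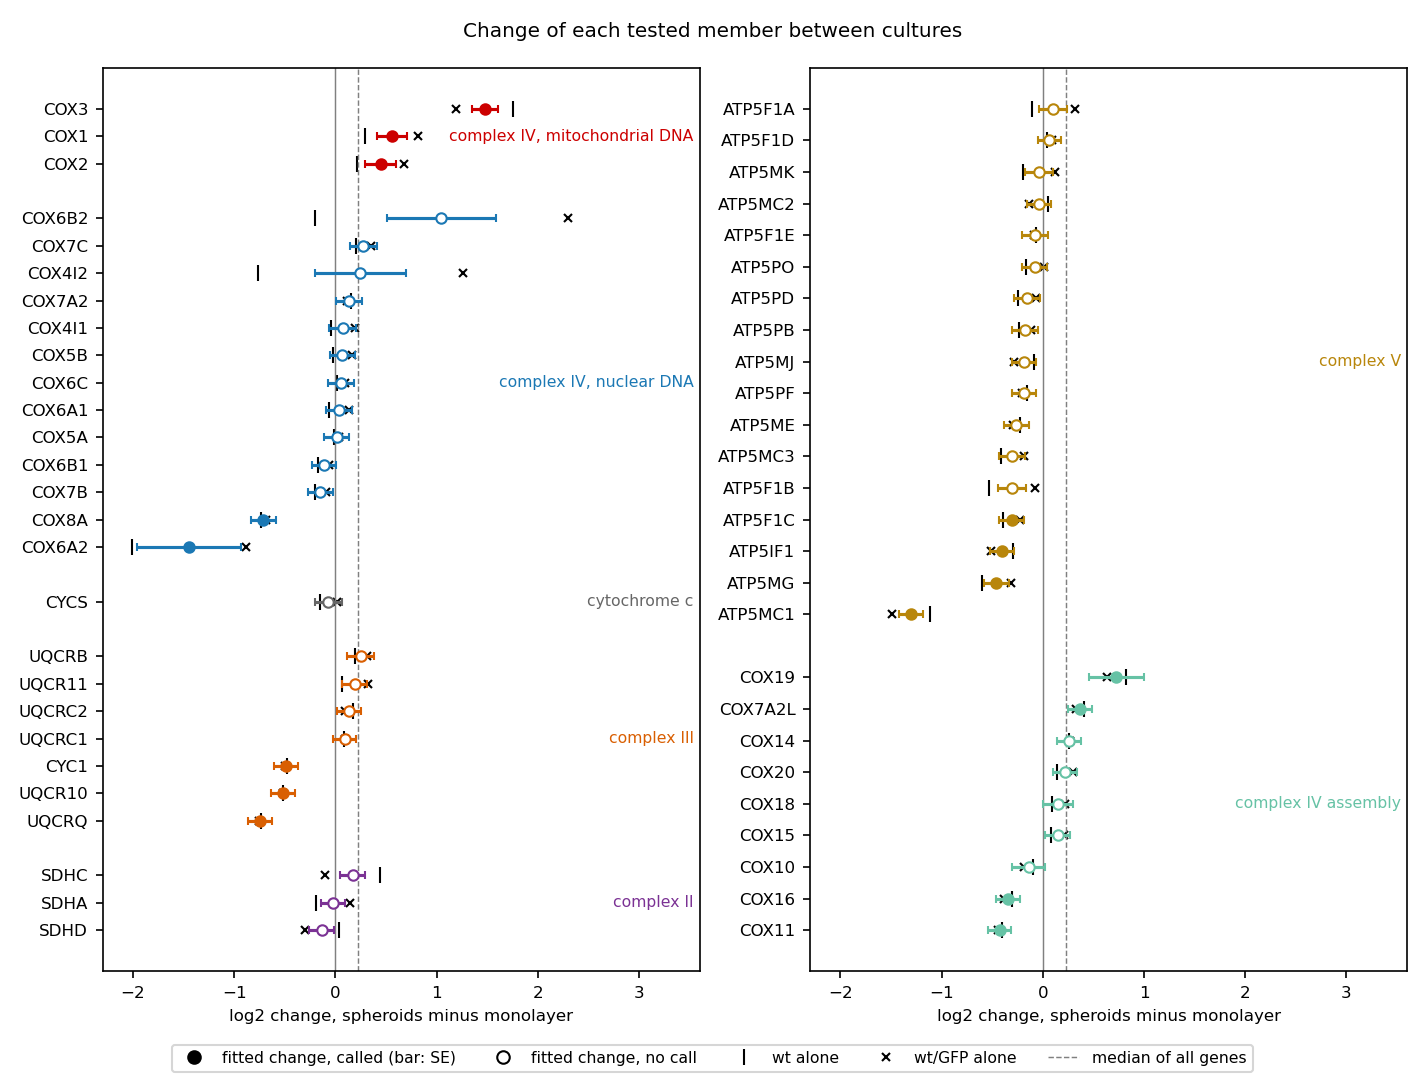
Fitted log2 change (spheroids minus monolayer, horizontal axis) of the 53 tested genes by complex, with bars of 1 SE, filled circles for called genes, ticks for the wt line, crosses for the wt/GFP line and a dashed line at the median of all genes, 0.23. ATP5MC1 and COX6A2 lie farthest to the left at -1.30 and -1.45, COX3 lies farthest to the right at 1.48, and every tested gene of complex V lies left of the dashed line.

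Among the bright members, the largest fall was in complex V. ATP5MC1 encodes the c subunit, of which the rotor ring is built, and 3 nuclear genes, ATP5MC1, ATP5MC2 and ATP5MC3, encode the same mature c protein behind different import sequences. The stretches upstream of ATP5MC1 and ATP5MC2 are shown because these genes code for the same protein and their transcripts changed differently. Each is the 250 bases before a transcription start from RefSeq (GRCh38.p14), read on the gene's strand, at chr17:48892537-48892786 on the plus strand for ATP5MC1 and chr12:53676084-53676333 on the minus strand for ATP5MC2. ATP5MC2 has 3 such starts in the table. Capitals mark matches, on either strand, to CCAAT, to TGACGTCA (the cAMP response element), to GCATGCG (the core of the sequence bound by the factor NRF1) and to CCGGAAG (a core bound by ETS factors such as GABPA).
ATP5MC1: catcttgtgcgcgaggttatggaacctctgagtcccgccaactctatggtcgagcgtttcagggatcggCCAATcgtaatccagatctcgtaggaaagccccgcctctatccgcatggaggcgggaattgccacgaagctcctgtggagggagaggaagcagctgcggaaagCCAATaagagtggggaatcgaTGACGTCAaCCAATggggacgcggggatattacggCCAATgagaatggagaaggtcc
ATP5MC2: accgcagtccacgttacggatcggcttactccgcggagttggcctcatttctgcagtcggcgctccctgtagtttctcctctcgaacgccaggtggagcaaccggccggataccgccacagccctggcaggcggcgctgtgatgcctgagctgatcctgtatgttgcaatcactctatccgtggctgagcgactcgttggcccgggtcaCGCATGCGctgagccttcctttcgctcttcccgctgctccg
The ATP5MC1 stretch held 4 CCAAT and 1 TGACGTCA and no match to the other 2. The ATP5MC2 stretch held overlapping matches to GCATGCG on both strands and none to the other 3. Of the 2 ATP5MC2 starts not shown, each held 1 CCAAT and 1 of them GCATGCG, so CCAAT is absent from the stretch shown and not from the gene's starts. As many as 4 CCAAT occurred in 307 of 35116 promoters (0.874%), ATP5F1E among the complex V genes included. CCAAT and TGACGTCA were chosen after the ATP5MC1 sequence had been seen, and a match is a run of letters, not a shown binding site.

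The signal of ATP5MC1 was 7084 in wt and 6691 in wt/GFP monolayers, and 3273 in wt and 2367 in wt/GFP spheroids. Both spheroid arrays lay below both monolayer arrays. The gene fell 2.47-fold, a log2 change of -1.30 ± 0.12 (SE, n = 2 against 2, limma adjusted p = 6.60e-10). The call held under every alternative that gave the gene a value. ATP5MC2 read 11336 and 10292 in monolayers and 11783 and 9355 in spheroids. Its arrays overlapped between cultures, with a change of -0.04 ± 0.12 (adjusted p = 0.804). ATP5MC3 read 27560 and 21950 in monolayers and 20667 and 19270 in spheroids, without overlap, and its change of -0.30 ± 0.13 was not called (adjusted p = 0.0548). It was called, at -0.47, in the unpaired fit without the wt/GFP monolayer array, while the wt line alone gave -0.42. The change of ATP5MC1 minus that of ATP5MC2 was -1.17 in wt and -1.36 in wt/GFP. Against ATP5MC3 the same difference was -0.70 in wt and -1.31 in wt/GFP. An exact two-sided permutation test of these differences over the 4 arrays without the pairing by line gave p = 0.333 for each pair. That is the smallest value that 2 arrays against 2 allow. With each of the 3 probe sets of ATP5MC3, the mean difference from ATP5MC1 stayed negative, as far as -1.63. A difference within an array does not depend on a factor applied to all its signals.

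**Figure D2:**
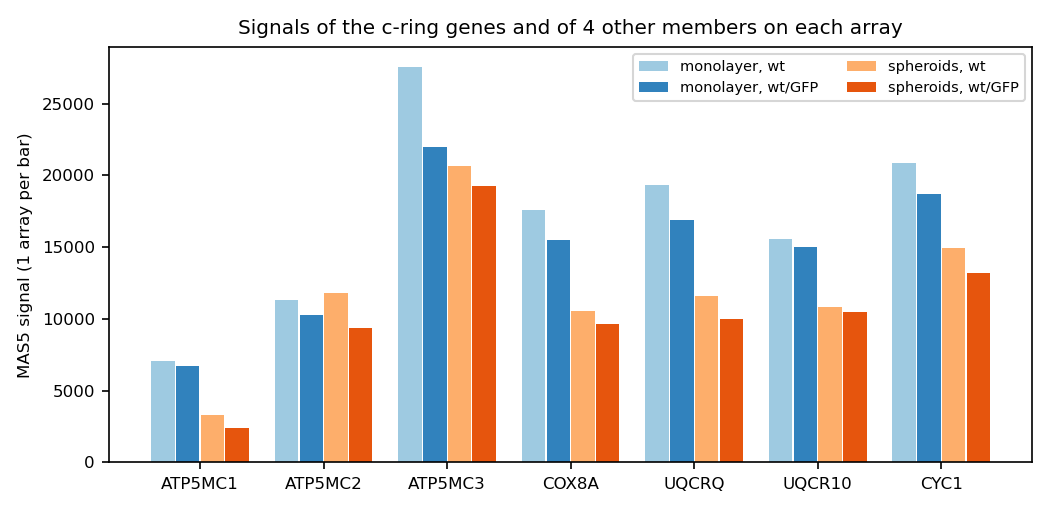
MAS5 signal (vertical axis, linear from 0) of the 3 c-ring genes and of COX8A, UQCRQ, UQCR10 and CYC1, with 1 bar for each array: monolayers in blue and spheroids in orange, wt lighter and wt/GFP darker. ATP5MC1 fell from 7084 and 6691 to 3273 and 2367, whereas the bars of ATP5MC2 overlap between the cultures.

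Around the c ring, ATP5MG, the g subunit of the membrane part, read 23981 and 20695 in monolayers and 15807 and 16648 in spheroids. It fell by 0.46 on the log2 scale (SE 0.13, adjusted p = 0.00386), and 3 of its 4 probe sets were called lower. The fourth, 2488 and 2927 against 2995 and 2202, gave -0.07. The call was lost without either spheroid array (adjusted p = 0.162 and 0.103). ATP5F1C encodes the gamma subunit, the central shaft in the F1 head, and read 21655 and 18340 in monolayers and 16447 and 15739 in spheroids. Its change of -0.31 ± 0.13 was close to the threshold (adjusted p = 0.0423) and was not called without the wt monolayer array or without either spheroid array. ATP5IF1, the protein that stops the enzyme from running in reverse, read 5604 and 5429 in monolayers and 4577 and 3801 in spheroids. Its change was -0.40 ± 0.12 (adjusted p = 0.00494). That call was lost when any array other than the wt spheroid array was left out, and its other probe sets disagreed, at 0.03 with no call and at -1.16, called lower (291 and 396 in monolayers, 141 and 148 in spheroids). These 3 genes were lower without overlap between the cultures, with changes well under that of ATP5MC1.

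The catalytic head was otherwise not called. ATP5F1B, the catalytic beta subunit, read 27017 and 21804 in monolayers and 18740 and 20629 in spheroids, a change of -0.30 (adjusted p = 0.0625) that came mainly from the wt line, at -0.53 against -0.08 in wt/GFP. ATP5F1A, the alpha subunit, changed by 0.11, ATP5F1E, the epsilon subunit, by -0.08, and ATP5F1D, the delta subunit, by 0.06. With its probe sets averaged, ATP5F1E was called lower, at -0.57. Its second probe set was dim, at 63.6 and 41.6 in monolayers and 8.98 and 28.9 in spheroids. Both spheroid signals lay under 30.6, the signal that corresponds to the filter. ATP5F1D had a dimmer probe set that went the other way, with 1730 and 1553 in monolayers and 717 and 1020 in spheroids, a called change of -0.93 in the fit of single probe sets. The 4 peripheral stalk genes, ATP5PB, ATP5PD, ATP5PF and ATP5PO, which hold the head still against the rotor, ranged from -0.19 to -0.08 with no call. Among the small membrane subunits, ATP5ME changed by -0.26, ATP5MJ by -0.18 and ATP5MK by -0.03, and ATP5MF was too dim to be tested. Across the 17 tested complex V genes, 4 were lower and 0 were higher, and the median change was -0.18, or -0.41 relative to the median of all genes. All 17 lay below that median. With quantile normalization 7 of the 17 were called lower (21.0% of all genes were), with median centring 16 (32.3% of all genes) and with scaling to the hybridisation controls 16 (28.1%).

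In complex III, 3 of the 7 tested genes fell and 0 rose under the deposited scaling, while quantile normalization called 3 lower and 3 others, UQCR11, UQCRC1 and UQCRC2, higher. UQCRQ, a small subunit that sits beside cytochrome b, read 19307 and 16889 in monolayers and 11558 and 9985 in spheroids. It fell 1.68-fold (-0.75 ± 0.12, adjusted p = 7.66e-06), with -0.74 in wt and -0.76 in wt/GFP. UQCR10, a small subunit next to cytochrome c1, read 15546 and 15010 in monolayers and 10856 and 10481 in spheroids. Its change was -0.52 in both lines (SE 0.12, adjusted p = 6.57e-04). CYC1 is cytochrome c1 itself, the haem protein that hands electrons to cytochrome c. It read 20842 and 18706 in monolayers and 14969 and 13213 in spheroids, a change of -0.49 ± 0.12 (adjusted p = 0.00151). In each of these genes both spheroid arrays lay below both monolayer arrays. The call of CYC1 was lost without the wt/GFP spheroid array (-0.40, adjusted p = 0.149), that of UQCR10 rested on 1 of 2 probe sets, the other giving 0.21, and that of UQCRQ held under every alternative.

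The other 4 complex III genes were not called. The core proteins UQCRC1 and UQCRC2, which face the matrix, changed by 0.09 and 0.13. UQCRB, which helps form the ubiquinone site, changed by 0.25, and UQCR11 by 0.19. UQCRB read 27077 and 23179 in monolayers and 30864 and 28765 in spheroids, without overlap, at an adjusted p of 0.119. Another bright probe set of UQCRB, 23212 and 21941 against 29331 and 27767, was called higher in the fit of single probe sets (0.34, adjusted p = 0.0318), and the gene was called higher when its probe sets were averaged. Within complex III the small subunits therefore ran from -0.75 to 0.25. The complex's median of 0.09, or -0.13 relative to all genes, described neither end of this range.

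Cytochrome c and complex II held no called gene. CYCS, the electron carrier that is also known for triggering caspases when released, read 38645 and 31822 in monolayers and 34686 and 32194 in spheroids. Its change was -0.07 ± 0.14 (adjusted p = 0.707). SDHA, the flavoprotein that oxidises succinate, read 3166 and 2864 in monolayers and 2770 and 3166 in spheroids, with a change of -0.02. The membrane anchors SDHC and SDHD changed by 0.17 and -0.14. SDHC was measured by 7 probe sets that disagreed. Its brightest probe set, on which the change of 0.17 rests, was not called, while 2 others were called lower, at -0.40 and -0.41, and 1 was called higher, at 1.06. The last of these read 357 and 323 in monolayers and 679 and 773 in spheroids. No direction is given for SDHC.

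Of the 16 nuclear subunit genes of complex IV, 13 were tested, 2 fell and 0 rose. COX8A, the ubiquitous form of the small subunit VIII, read 17604 and 15509 in monolayers and 10575 and 9617 in spheroids. It fell 1.64-fold (-0.71 ± 0.12, adjusted p = 1.42e-05), with -0.73 in wt and -0.69 in wt/GFP, and the call held under every alternative that gave a value. Sequence upstream of COX8A and UQCRQ is shown because these bright genes fell by like amounts in both lines. The stretches are 250 bases before the RefSeq starts on the plus strand of GRCh38.p14, at chr11:63974370-63974619 for COX8A and chr5:132866392-132866641 for UQCRQ, with the same 4 motifs in capitals (CTTCCGG and ATTGG are CCGGAAG and CCAAT on the other strand).
COX8A: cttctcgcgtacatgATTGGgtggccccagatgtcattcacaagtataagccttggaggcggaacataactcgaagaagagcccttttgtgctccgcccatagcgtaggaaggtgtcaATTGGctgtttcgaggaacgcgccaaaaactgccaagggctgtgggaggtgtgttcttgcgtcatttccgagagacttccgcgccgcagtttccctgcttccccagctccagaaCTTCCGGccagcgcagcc
UQCRQ: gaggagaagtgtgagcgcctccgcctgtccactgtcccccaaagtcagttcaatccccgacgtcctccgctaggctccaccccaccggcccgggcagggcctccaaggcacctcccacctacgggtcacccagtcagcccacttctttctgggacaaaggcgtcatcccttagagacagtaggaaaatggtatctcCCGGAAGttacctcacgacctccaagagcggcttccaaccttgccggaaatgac
Each held 1 match to CCGGAAG, COX8A also held 2 CCAAT, and neither held GCATGCG. Across the respiratory genes, 44 of the 58 were matched to 54 promoters in that table. GCATGCG occurred in 11 of these 54 (20.4%) against 3.39% of all 35116 promoters, and CCGGAAG in 16 (29.6%) against 8.52%. Among the 9 lower genes with a promoter, 1 held GCATGCG, 2 held CCGGAAG and 6 held CCAAT. Of the 44 respiratory genes with a promoter, 20 held CCAAT. Counted by promoter, 38.9% of the respiratory promoters and 32.0% of all promoters held it. ACGTG, the core of the hypoxia response element, occurred in 20.4% against 18.5%. These shares are descriptions, and promoters of 1 gene can overlap.

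The remaining ubiquitous or sole isoforms of complex IV subunits had no call, with changes from -0.15 to 0.27. COX4I1 and COX5A, which take part in the regulation of the enzyme by adenine nucleotides and thyroid hormone metabolites respectively, changed by 0.07 and 0.01. COX5B changed by 0.07, COX6A1 by 0.03, COX6B1 by -0.11, COX6C by 0.06, COX7A2 by 0.14 and COX7C by 0.27. COX7B changed by -0.15 with its bright probe set, while a dim one read 246 and 249 in monolayers and 404 and 432 in spheroids and was called higher, at 0.72. COX8A was therefore the only one of these 10 genes called under the deposited scaling. With median centring 9 of the 13 tested nuclear genes were called lower, against 32.3% of all genes, and with scaling to the hybridisation controls 10 were, against 28.1%. COX4I1, COX5A, COX5B, COX6A1 and COX6C then turned negative, at -0.32 to -0.38 with median centring and at -0.52 to -0.58 with the controls. The direction of the bulk of complex IV thus followed the scaling.

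Each isoform pair was compared within the same arrays. COX4I2 encodes the alternative form of subunit IV, known from lung and from cells at low oxygen. It read 82.4 in wt and 64.2 in wt/GFP monolayers, and 42.6 and 173 in their spheroids. The spheroid arrays lay on both sides of the monolayer arrays, so that the change was -0.77 in wt and 1.26 in wt/GFP (adjusted p = 0.686). COX4I1 read 27669 and 22621 in monolayers and 26759 and 25792 in spheroids (0.07 ± 0.13, adjusted p = 0.692). The difference COX4I2 minus COX4I1 was -0.72 in wt and 1.07 in wt/GFP, with a mean of 0.18 (exact two-sided permutation test without the pairing by line, p = 1). With other probe sets of COX4I1 the mean ran from 0.13 to 0.82. No shift between the isoforms was detectable at this signal and with 2 lines.

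COX6A2, the heart and muscle form of subunit VIa, read 129 and 64.7 in monolayers and 21.4 and 28.8 in spheroids. It was called lower (-1.45 ± 0.52, adjusted p = 0.0219), but both spheroid signals lay under 30.6, the signal that corresponds to the filter, so the gene passed through the culture where it was high and had to differ. It is counted among the 11 lower genes, which are 10 without it, and among the 2 of complex IV, of which it leaves 1. The call was lost without either wt array (adjusted p = 0.325 and 0.0759). Its ubiquitous partner COX6A1 read 24233 and 20597 in monolayers and 23145 and 22587 in spheroids. No conclusion is drawn on a difference between the isoforms, for the same reason. Of 4 muscle markers, 3 were tested and 1, DES, rose. The 4 summed to 164 and 94.5 in monolayers and to 306 and 350 in spheroids. DES alone gave 94.6 and 24.2 of this in monolayers and 212 and 229 in spheroids. The part of muscle-type expression in the COX6A2 signal was not tested. COX6B2, known from testis, read 73.8 and 13.2 in monolayers and 62.2 and 120 in spheroids, a change of 1.05 ± 0.54 (adjusted p = 0.110) that was 2.30 in wt/GFP and -0.21 in wt. The alternative isoforms COX7A1, COX7B2 and COX8C were too dim to be tested, with signals from 1.86 to 56.4 over the 4 arrays.

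**Figure D3:**
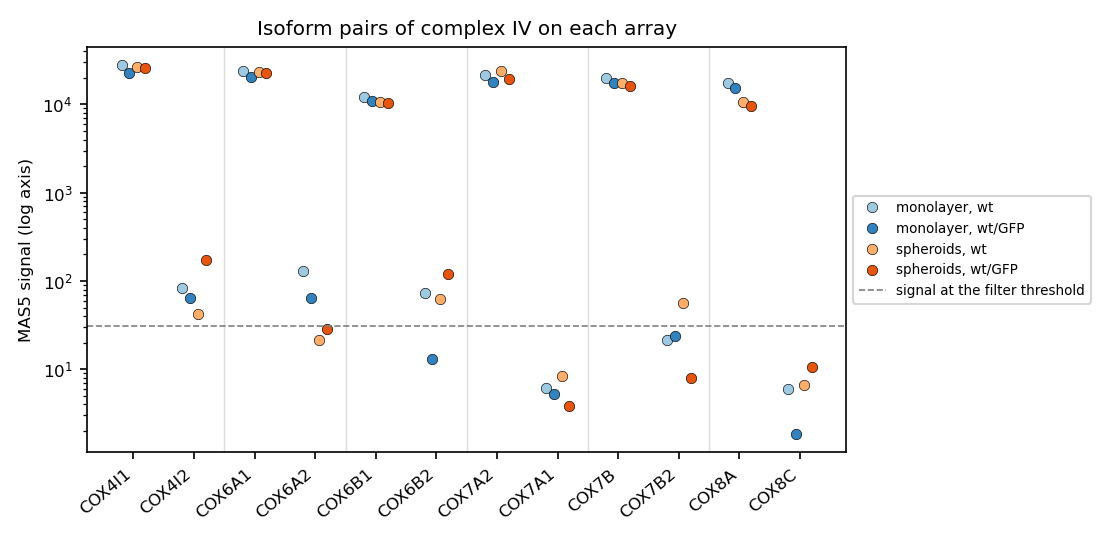
MAS5 signal (log axis) on each of the 4 arrays for 6 pairs of complex IV genes, each a ubiquitous isoform and its alternative, in monolayers (blue) and spheroids (orange), with the signal at the filter threshold, 30.6, as a dashed line. COX8A is the only ubiquitous isoform of these pairs that was called (-0.71), COX4I2 spreads from 42.6 to 173 within spheroids, and COX7A1 and COX8C lie below the dashed line on every array.

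The mitochondrial genes of complex IV went the other way from the called nuclear ones under the deposited scaling. COX3 encodes a core subunit without metal centres and read 4005 and 4774 in monolayers and 13570 and 10947 in spheroids. It rose 2.78-fold (1.48 ± 0.13, adjusted p = 1.90e-10), by 1.76 in wt and 1.19 in wt/GFP, and stayed called higher at 0.88 with scaling to the hybridisation controls. Its probe set is of a kind that can also bind other sequences, and COX3 had only this 1 probe set among those analysed. COX1, which carries the haem and copper site where oxygen binds, read 42975 and 32503 in monolayers and 52702 and 57423 in spheroids. It was called higher at 0.56 ± 0.15 (adjusted p = 0.00281), with 0.29 in wt and 0.82 in wt/GFP. COX2, which takes the electrons from cytochrome c, read 53583 and 41740 in monolayers and 61973 and 66952 in spheroids. Its change was 0.45 ± 0.15 (adjusted p = 0.0167), with 0.21 in wt and 0.68 in wt/GFP. These signals lie near the top of the scale, where the highest signal of any probe set was 68036. COX1 and COX2 were not called under any of the other 3 scalings, and turned to -0.03 and -0.15 with the hybridisation controls, and neither was called without either spheroid array. COX2 turned to -0.01 with quantile normalization, and was not called without the wt/GFP monolayer array.

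Complex IV assembly factors of the COX series insert its haem and copper or hold its early intermediates, and COX7A2L joins complexes III and IV into supercomplexes. Of 9 tested, 2 fell and 2 rose. COX11, which delivers copper to COX1, read 7416 and 7226 in monolayers and 5614 and 5299 in spheroids (-0.42 ± 0.11, adjusted p = 0.00287). Its 3 dimmer probe sets gave -0.13 to 0.05, and the call was lost without the wt monolayer array (adjusted p = 0.0525). COX16, a factor in the maturation of COX2, read 10892 and 9748 in monolayers and 8841 and 7480 in spheroids (-0.34 ± 0.12, adjusted p = 0.0164). It was not called without the wt monolayer or the wt/GFP spheroid array, nor when the cell line was left out of the model (adjusted p = 0.0547).

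COX7A2L read 5927 and 6057 in monolayers and 7884 and 7592 in spheroids, a change of 0.37 ± 0.11 (adjusted p = 0.00892). The sign turned to -0.02 with median centring and -0.22 with the hybridisation controls, and the call was lost without either monolayer array (adjusted p = 0.0841 and 0.0578). Set against its relative COX7A2 it was higher by 0.26 in wt and 0.21 in wt/GFP (exact two-sided permutation test over the 4 arrays without the pairing by line, p = 0.667). COX19, a copper-handling factor, read 122 and 164 in monolayers and 225 and 263 in spheroids (0.73 ± 0.27, adjusted p = 0.0280). It was called under the deposited scaling and in no other of the 4, and the call was lost without any 1 of the arrays other than the wt/GFP monolayer. COX10, COX14, COX15, COX18 and COX20 had no call, with changes from -0.14 to 0.26. COX15 had a dimmer probe set that was called lower, 1215 and 1139 in monolayers against 657 and 857 in spheroids, and COX17 was too dim to be tested. A dim probe set of COX20, 166 and 145 in monolayers against 314 and 397 in spheroids, was called higher at 1.12 (adjusted p = 3.98e-04), and COX20 was called higher with probe sets averaged and with quantile normalization.

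Among the nuclear groups, medians differed while ranges overlapped. Under the deposited scaling the mitochondrial genes of complex IV, from 0.45 to 1.48, lay above every tested gene of complexes II, III and V. With quantile normalization COX1 (0.17) and COX2 (-0.01) lay below UQCR11 (0.29) and UQCRC2 (0.26). The median change relative to all genes was -0.41 in complex V (17 genes), -0.25 in complex II (3 genes), -0.17 among the nuclear subunits of complex IV (13 genes), -0.13 in complex III (7 genes), -0.07 among the assembly factors (9 genes) and 0.33 among the mitochondrial genes of complex IV (3 genes). In wt alone complex V stood at -0.44, and in wt/GFP at -0.35. In the same order, complex II stood at -0.18 and -0.31 and complex III at -0.15 and -0.12. Nuclear complex IV stood at -0.28 and -0.10, the assembly factors at -0.13 and 0.004, and the mitochondrial genes at 0.08 and 0.61. The direction of the smaller differences rested on the reference. Relative to the 389 genes at or above the respiratory genes' median level, complex V stood at -0.24 and complex II at -0.07. Nuclear complex IV stood at 0.01, complex III at 0.04 and the assembly factors at 0.10. Members below that level, among them every tested complex II gene and assembly factor, were dimmer than all 389, which are not of like brightness for them. Of the 50 tested nuclear genes, 43 lay below the median of all genes but 30 below that of the 389, and of the 17 complex V genes 17 and 15 did. Of the 50, 11 were called lower and 2 higher. Quantile normalization gave 13 lower and 7 higher calls among the tested members, against 21.0% and 23.6% of all genes. Median centring gave 35 and 1, against 32.3% and 16.3%. Scaling to the hybridisation controls gave 34 and 1, against 28.1% and 7.48%. The medians of complexes II and III and of the assembly factors changed sides with quantile normalization, to 0.04, 0.16 and 0.10 relative to all genes. Without the cell line in the model the counts were 9 and 4, against 17.5% and 28.7%. No difference between complexes was tested.

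**Figure D4:**
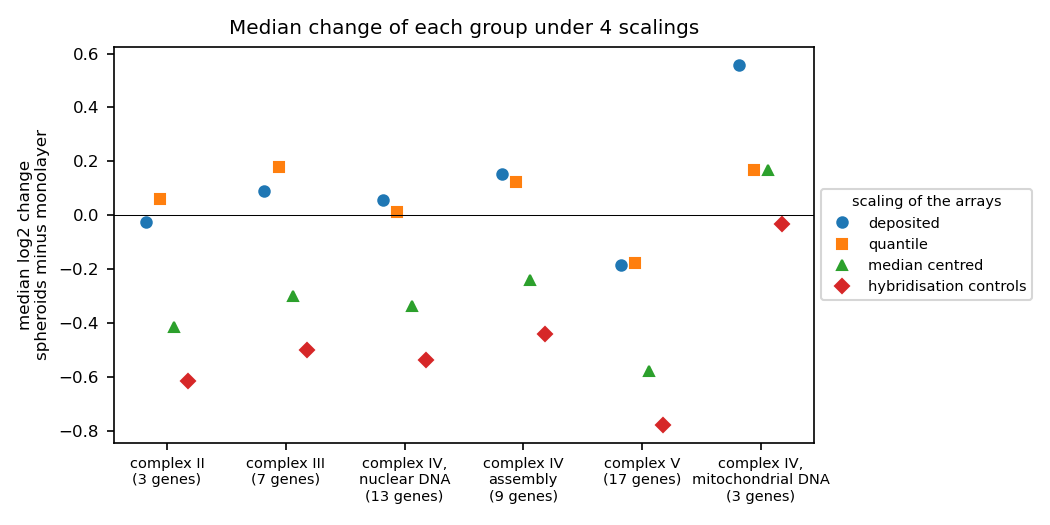
Median log2 change (spheroids minus monolayer, vertical axis) of each group of tested genes under 4 scalings of the arrays: as deposited, quantile normalization, median centring and scaling to hybridisation controls. Complex V lies below 0 under all 4, from -0.18 to -0.78, while the medians of complexes II, III and IV move across 0.

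**Figure D5:**
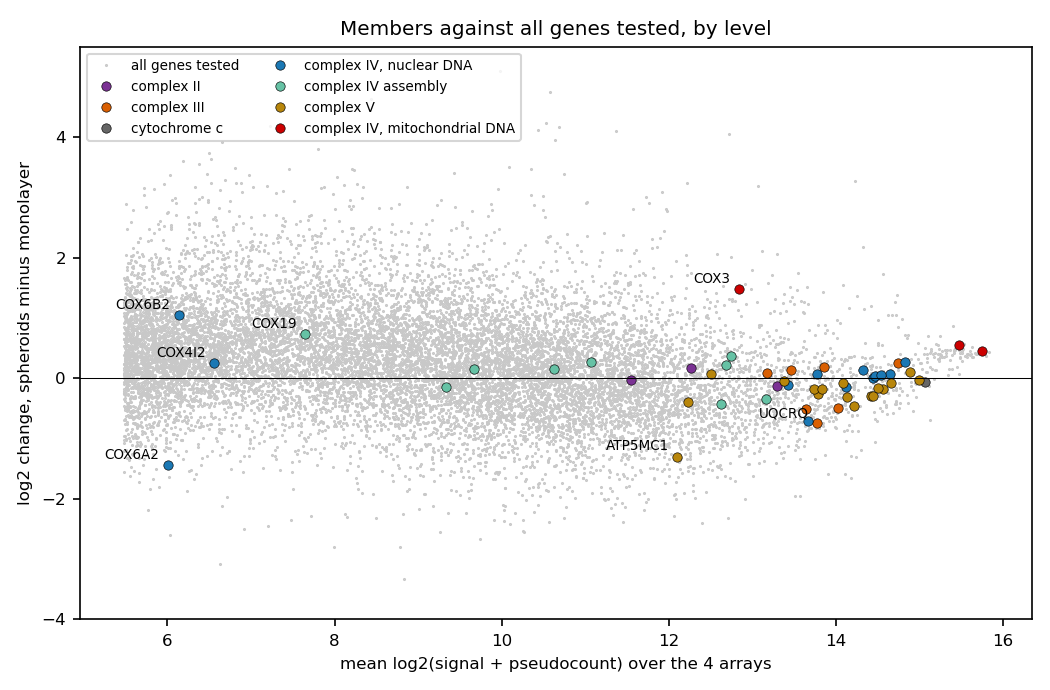
Fitted log2 change (vertical axis) against the mean log2(signal + pseudocount) over the 4 arrays (horizontal axis) for the 14349 genes tested (grey) and the 53 respiratory genes, coloured by complex. Most respiratory genes lie to the right, at a median level of 13.77. The median change of all genes at or above that level was 0.05. ATP5MC1 lies at -1.30 and COX3 at 1.48.

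Lists of related genes were read in the same fit, where 18.5% of all genes were lower and 30.6% higher. Of 33 tested nuclear subunits of complex I, the entry of electrons from NADH, 18 were lower and 0 higher, with a median change of -0.40. The other scalings called 19 to 32 of the 33 lower, and quantile normalization called 2 higher. NDUFA9 changed by -1.06, NDUFB2 by -1.05, NDUFB3 by -1.02 and NDUFB8 by -0.90. The values of NDUFB2 were 10808 and 10412 in monolayers and 5241 and 4973 in spheroids. Of 9 complex III assembly factors, 4 were lower and 0 higher (4 to 7 lower and 0 higher under the other scalings), led by BCS1L, which translocates the Rieske protein and changed by -1.37. UQCC5 changed by -0.90, UQCC4 by -0.88 and UQCC3 by -0.70. Of 23 further complex IV factors, 11 were lower and 3 higher (11 to 16 and 0 to 5 under the other scalings), among them TACO1, the translational activator of COX1 (-1.13), SLIRP, which stabilises mitochondrial messengers (-0.88), SCO1, a copper chaperone (-0.83), and, upward, TBRG4 (0.76). TACO1 read 2407 and 2823 in monolayers and 1146 and 1222 in spheroids.

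Of 6 complex V factors, 4 were lower and 1 higher, and under each other scaling 5 were lower and 0 higher. TMEM70, which helps to assemble the c ring, read 13664 and 12184 in monolayers and 8724 and 7110 in spheroids (-0.71, adjusted p = 1.14e-05). ATPAF1, a chaperone of the F1 beta subunit, changed by -0.71, TMEM242 by -0.61 and DMAC2L by 0.53, which turned to -0.06 with the hybridisation controls. Of 4 complex II factors, 1 fell (SDHAF2, -0.47) and 1 rose (SDHAF4, 1.33), and each other scaling gave the same counts. HCCS, the enzyme that attaches haem to cytochromes c and c1, read 3126 and 3297 in monolayers and 1618 and 1276 in spheroids (-1.15 ± 0.13, adjusted p = 1.63e-08). COXFA4, formerly counted as the complex I subunit NDUFA4 and now placed in complex IV, had no call (-0.11), and its relative COXFA4L2 was too dim to be tested.

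Of 14 tested regulators of mitochondrial gene expression, 5 were lower and 3 higher (5 to 7 and 1 to 4 under the other scalings). TFAM, which packages and transcribes mitochondrial DNA, read 5680 and 5392 in monolayers and 2672 and 2820 in spheroids (-1.01 ± 0.12, adjusted p = 3.29e-08). PPARA rose by 2.50, PPARD by 0.98, and PPRC1 changed by -0.69. PPARGC1A, the co-activator best known for raising mitochondrial content, was too dim to be tested. Of 7 genes known to act on the choice between COX4 isoforms or on their transcription, 4 were higher and 2 lower (1 to 4 higher and 2 lower under the other scalings). EPAS1, the HIF-2 alpha subunit, read 758 and 714 in monolayers and 4833 and 6507 in spheroids (2.91 ± 0.13, adjusted p = 4.94e-16). RBPJ rose by 0.93 and CXXC5 by 0.78, and LONP1, the protease that removes COX4I1, changed by -0.63. All 9 tested reference genes of the low-oxygen response were higher, against 30.6% of all genes, with a median change of 1.86. Each other scaling called 8 of the 9 higher, and LDHA turned to -0.13 with the hybridisation controls. COX4I2, itself known as a gene of low oxygen, had line changes of opposite sign, as given above.

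Between the lines, limma called 0 of the 53 respiratory genes at an adjusted p under 0.05, against 4 of 14349 genes (0.0279%). The adjusted p of a line difference was 0.727 for ATP5MC1, 0.831 for UQCRQ and 0.872 for COX8A. A p above the threshold does not show that the lines are alike. Across single probe sets, 20 of the 107 that passed the filter were called lower and 10 higher, against 16.1% and 26.6% of all probe sets. Of 54 further probe sets of tested genes, 21, in 17 genes, had the opposite sign to the brightest one of their gene. Of these 21, 5 were called, and they belong to SDHC, COX7B, COX15 and ATP5F1D.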

How the data were processed

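Biotin-labelled material was made from total RNA, per the labels. The deposited table holds intensity values on a linear scale, MAS5 signals per the submitters' processing notes; no source used here gives its version or its settings. Each array was scaled to a trimmed mean of 500.1 (2% left out at each end), so a broad change in RNA content is not visible. Probe sets were named through the platform annotation with symbols updated through RefSeq, leaving aside those without exactly 1 symbol. Signals were taken as log2(signal + 14.0), the pseudocount being the 25th percentile, which understates changes of dim genes. Probe sets with a mean above the 40th percentile (5.48, a signal of 30.6) were kept, and each gene took its brightest. limma 3.58.1 in R 4.3.3 fitted culture and cell line over the 4 arrays, with empirical Bayes moderation and a trend (1 residual and 25.8 prior degrees of freedom). Lines pair the arrays because the labels give each line in both cultures. Tests were two-sided. No line and culture had a replicate array, and the number of cultures per array is not stated. The number of arrays limits the precision.

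The respiratory genes and the lists were chosen with earlier results of these data known. Every member could be named; those described in full were the called ones, isoform pairs, and genes whose probe sets disagreed, and up to 4 genes of each list. The procedure was tested on simulated data. Alternatives were 3 other scalings, other pseudocounts, filters, probe set rules, moderation and thresholds, a fit without the line, and leaving out each array.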

Additional observations from a re-analysis of the deposited data

Results flagged for a closer look

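A total of 14 of the 53 tested respiratory genes moved one way in the wt line and the other way in wt/GFP. The share of all genes that did so was not counted, so the 14 cannot be called many or few. With 1 array for each line and culture, the difference between the lines was not tested for any of them, and most of these values are small. The values are the change in wt/GFP minus the change in wt, on the log2 scale. The widest gaps belonged to the dim alternative isoforms of complex IV, COX6B2 at 2.51 (from -0.21 in wt and 2.30 in wt/GFP) and COX4I2 at 2.03 (from -0.77 and 1.26). All 3 tested complex II genes were among the 14, with SDHC at -0.54, SDHA at 0.34 and SDHD at -0.34. In complex V the gap was 0.42 for ATP5F1A, 0.32 for ATP5MK, 0.18 for ATP5PO and -0.19 for ATP5MC2. Among the bright complex IV genes it was 0.24 for COX4I1, 0.20 for COX6A1, 0.20 for COX5B and 0.055 for COX5A, and for CYCS it was 0.17. None of the 16 called genes was among them, which the call itself favours.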

How the results depend on the processing

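ATP5MC1, COX3, COX8A and UQCRQ kept their direction and their call under every alternative that gave them a value; leaving out probe sets shared between transcripts gave none for the first 3. The scaling changed the counts of calls. With median centring, 35 genes were called lower and 1 higher, and 20 of 25 positive changes turned negative, of which those with a call in either fit were UQCRC1 (-0.30), COX4I1 (-0.32), COX5A (-0.38), COX5B (-0.32), COX6A1 (-0.36), COX6C (-0.33), COX7A2L (-0.023) and ATP5F1D (-0.33). With the hybridisation controls the counts were 34 and 1, and 22 of the 25 turned, of which those with a call in either fit were COX4I1 (-0.52), COX5A (-0.58), COX5B (-0.52), COX6A1 (-0.56), COX6C (-0.53), COX7A2 (-0.46), COX7A2L (-0.22), ATP5F1A (-0.49), COX1 (-0.034) and COX2 (-0.15). With quantile normalization COX2 turned to -0.0084, and the medians relative to all genes were 0.038 in complex II, 0.16 in complex III, -0.011 in complex IV, 0.10 among the assembly factors and -0.20 in complex V. Moderation without a trend left 3 lower and 1 higher, no filter left 2 higher and an adjusted p under 0.01 left 3 higher. Without shared probe sets, which leaves fewer genes, 6 were lower, UQCR10 turned to 0.21 and ATP5F1C to 0.66, and complexes II and III stood at 0.20 and -0.22. The share of all genes called was not counted under these settings, so the member counts cannot be set against it. With probe sets averaged within a gene, ATP5F1D turned to -0.43, and complexes II and III stood at -0.079 and -0.20. The filter at the 60th percentile gave -0.065 in complex III and -0.34 in complex V, and the median pseudocount gave -0.092 in complex III. With other probe sets of ATP5MC3, ATP5MC1 minus ATP5MC3 reached -1.63. The causes were not tested.

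Without the replicate block of the cell line, 9 were lower and 4 higher, COX16, ATP5F1C and COX2 having lost their call, and the block changed no other call. Leaving out each array in turn, with the line also left out of the model and 1 culture at 1 array, gave 6 to 13 lower and 3 to 7 higher genes. The medians relative to all genes then ran from -0.32 to -0.16 in complex II, from -0.21 to -0.048 in complex III, from -0.30 to -0.04 in complex IV, from -0.16 to -0.06 among the assembly factors, from -0.50 to -0.29 in complex V and from 0.14 to 0.57 among the mitochondrial genes. COX4I2 minus COX4I1 ran from -0.71 to 1.06. Dim isoforms are limited by signal near the filter. COX1 and COX2 lie near the top of the scale, and a limit there was not tested.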

Other observations

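The other messengers of the mitochondrial genome did not move as 1 group. ND6, a complex I subunit and the messenger read from the light strand of mitochondrial DNA, read 6638 in wt and 7510 in wt/GFP monolayers and 1381 and 1727 in spheroids. Both spheroid arrays lay far below both monolayer arrays, a 4.54-fold fall (-2.18 ± 0.12 SE, limma adjusted p = 1.63e-14), and the fitted change lay between -2.77 and -2.11 under the 4 scalings. Messengers read from the heavy strand were higher under the deposited scaling. ND4 read 33726 and 30117 in monolayers and 56673 and 60201 in spheroids, a change of 0.87 (adjusted p = 9.00e-06). ATP6, the complex V subunit that forms the proton channel with the c ring, read 33236 and 27998 in monolayers and 52418 and 47226 in spheroids, a change of 0.71 (adjusted p = 1.05e-04), and ND2 changed by 0.39 (adjusted p = 0.0254). With the hybridisation controls ND4 and ATP6 stood at 0.28 and 0.11, while ND2 turned to -0.20. Among ATP6, COX1, COX2, COX3, ND2, ND4 and ND6, the values of ND6 and COX3 thus moved most, in opposite directions. The ND genes were chosen for mention after their values were seen, and the arrays do not give the strand beyond the probe sets' annotation.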
